A study of Mus musculus with 54 samples.

Results

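Il10 and Il22 encode 2 secreted cytokines of the interleukin-10 family. They were followed in small-intestinal group 2 innate lymphoid cells (ILC2s), tissue lymphocytes without antigen receptors that secrete type 2 cytokines. Both genes were chosen by their levels in these libraries, so their values and differences are given as a description, with no test. They are 2 of the 10799 genes listed for the culture experiment and 0 of the 10176 listed for the second experiment. RNA was measured by Smart-seq2, which sequences whole transcripts from little input, and is given in TPM, a share of all transcripts that is corrected for gene length. In the culture experiment, WT C57BL/6 cells spent 4, 48 or 72 h in medium to which IL-2 and IL-7 were always added. IL-25, a tuft cell cytokine that activates ILC2s, was either left out or added too. These were 6 groups of 4 libraries. In the second experiment, 4 groups of 4 libraries came from cells labelled nILC2 and iILC2, each from CTRL (labelled WT) and KO mice of the C57BL/6 strain, where Rxrg, a retinoid receptor gene, is the one removed per the series text. IL-25 for 48 h is the treatment given for all 16, and what n and i stand for is not given in the labels. All mice were 8 to 12 weeks old, male and female pooled. Nothing says whether libraries of a group came from separate cultures or animals, so p-values measure the spread between these libraries, which may be technical.

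Family members signal through paired receptors. IL-10 binds a complex of IL-10RA and the shared chain IL-10RB, and lowers inflammatory gene expression in leukocytes. IL-22 binds IL-22RA1 with IL-10RB on epithelial cells, where it supports barrier defence and repair, and IL-24 acts on epithelial cells through IL-20 receptor complexes. The receptors use the kinases JAK1 and TYK2 and, in the main, the transcription factor STAT3. In the intestine the best known sources of IL-22 are group 3 innate lymphoid cells (ILC3s) and some T cells, while ILC2s are known for IL-5, IL-9 and IL-13.

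In GRCm38.p6, the assembly of mm10, Il10 spans chr1:131019845-131024970 and Il22 spans chr10:118204584-118210047. Il22 has a near-identical neighbour, Iltifb, at chr10:118289629-118295038, 79.6 kb away. Iltifb was listed in neither table. The RefSeq promoter windows of the pair (GRCm38.p6, 250 bases before to 50 after a start site) share a stretch of 102 bases. Reads from transcribed stretches this alike cannot be assigned to 1 copy with certainty. The first 57 bases of the shared stretch lie before the annotated start of Iltifb, and no transcript sequences were compared. The shared stretch lies at chr10:118204885-118204986 on the plus strand for Il22 and at chr10:118294994-118295095 on the minus strand for Iltifb. Capitals mark the 4 bases that differ, and the other 98 (96.1%) are the same.
Il22: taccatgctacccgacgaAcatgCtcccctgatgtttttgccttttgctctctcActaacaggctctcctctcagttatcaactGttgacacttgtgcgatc
Iltifb: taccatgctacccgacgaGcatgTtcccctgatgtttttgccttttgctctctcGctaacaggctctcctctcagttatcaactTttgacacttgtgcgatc
Levels of Il22 below are those the authors assigned to it, with an uncertainty from Iltifb that was not measured. The start site behind the Il22 window lies 380 bases inside the annotated gene. The whole window thus lies within the gene, and no sequence before the gene was searched. The window was searched on both strands for TGANTCA (AP-1), TTCNNNGAA (STAT), GCGTG (dioxin response core, bound by the aryl hydrocarbon receptor), AGGTCA (nuclear receptor half-site), CACGTG (E-box) and the NF-kB motif. It held none of these letters, while 7.8%, 8.3%, 32.4%, 16.3%, 7.2% and 8.5% of 32851 windows of the same length did, in that order. Il10 had no window in the table.

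In cultured cells the 2 genes were high in different groups. Il10 was near or at 0 in every culture without IL-25 and after 4 h with it, and was abundant after 48 and 72 h with IL-25. Il22 was abundant after 4 h, more so with IL-25, and low or at 0 in most libraries at 48 and 72 h.

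Il10 was 224, 151, 198 and 207 TPM in the 4 libraries kept 48 h with IL-25, and 136, 135, 124 and 158 TPM in those kept 72 h with it. Without IL-25 it was listed at 0 in all 4 libraries at 48 h and in 3 of 4 at 72 h, the other holding 0.38 TPM. At 4 h it was 0, 0, 0.28 and 0 TPM without IL-25 and 0.22, 0, 0.28 and 0.48 TPM with it. The 8 late IL-25 libraries thus lay above the other 16. The means were 195 ± 31.5 TPM at 48 h and 138 ± 14.4 TPM at 72 h with IL-25 (SD, n = 4), and from 0 to 0.245 TPM in the other 4 groups. On the log2(TPM + 1) scale, which understates changes from low levels and gives no fold against a group at 0, IL-25 minus none was 0.21 at 4 h, 7.60 at 48 h and 6.999 at 72 h (SE 0.16 each). The difference between 48 and 72 h with IL-25 was -0.48, and the libraries of these groups overlapped. In order of mean level, the groups at 48 and 72 h with IL-25 came first, a gap without overlap followed, and the libraries of each further pair of neighbours in that order overlapped. Among all listed genes, Il10 ranked between 652 and 911 in the libraries at 48 h with IL-25, and between 836 and 1088 at 72 h.

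Il22 had another order of levels. After 4 h with IL-25 it was 364, 460, 516 and 232 TPM, against 25.9, 56.5, 20.8 and 34.8 TPM without, and no library of 1 group reached the other. The means were 393 ± 125 and 34.5 ± 15.8 TPM (SD, n = 4). Both groups lay above all later ones, so the time in culture and IL-25 each went with a gap between libraries. At 48 h Il22 was 0.94, 0.5, 0.97 and 0.47 TPM without IL-25 and 0.27, 0.26, 0 and 4.89 TPM with it. At 72 h it was 0.23, 0.59, 0 and 0.24 TPM without IL-25 and 0.44, 0.28, 0.24 and 13.1 TPM with it. At both times IL-25 replicate 4 stood far above the other 3, and the groups overlapped. IL-25 minus none on the log2(TPM + 1) scale was 3.51 at 4 h, 0.04 at 48 h and 0.93 at 72 h (SE 0.57 each), and without replicate 4 of the IL-25 group it was -0.543 at 48 h and 0.078 at 72 h. From 4 to 48 h the difference was -4.28 without IL-25 and -7.75 with it. The plot of both genes by library shows the early peak of one and the late plateau of the other.

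**Figure D1:**
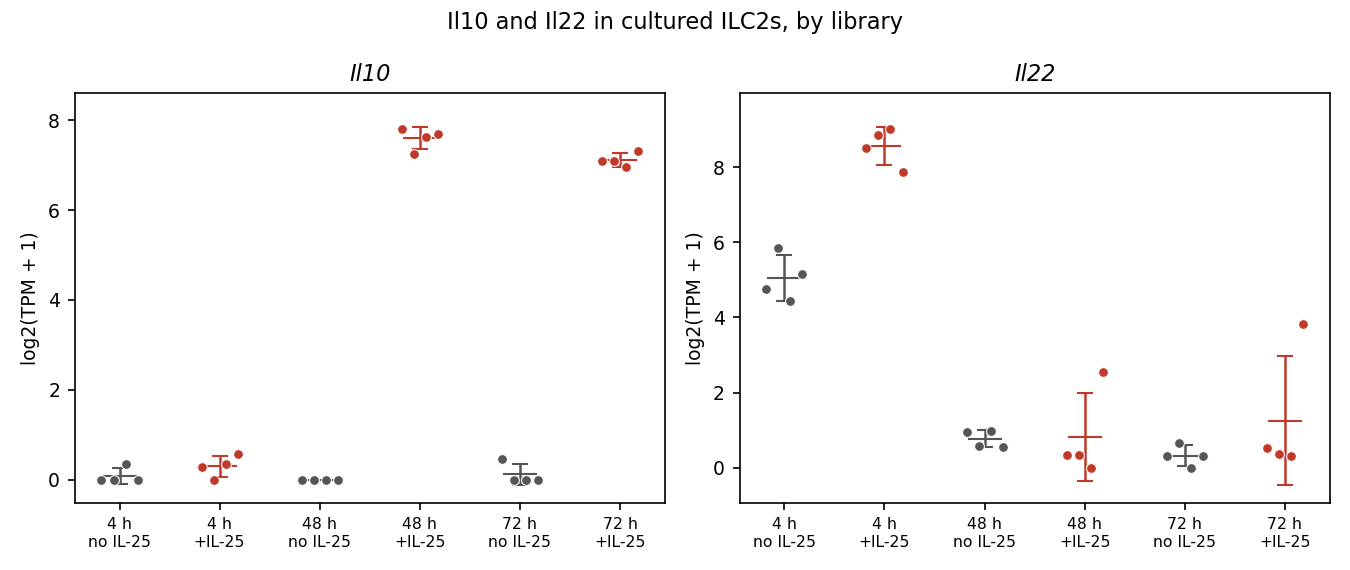
Each point is 1 library, with the group mean and SD of log2(TPM + 1) as bars, for Il10 (left) and Il22 (right) after 4, 48 and 72 h without (grey) or with (red) IL-25. Il10 is high in the 8 IL-25 libraries at 48 and 72 h, where its means are 195 and 138 TPM, and Il22 in the 8 libraries at 4 h, where its means are 34.5 and 393 TPM.

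TPM is corrected for gene length, so levels of different genes are set side by side here, though other differences between genes are not corrected. The place of Il22 also carries the uncertainty of reads that may stem from Iltifb. Among the 14 interleukin genes listed (a list drawn up after the values were seen), Il22 was number 3 by mean TPM after 4 h with IL-25, behind Il9 (16277 TPM) and Il5 (2034 TPM) and above Il13 (150 TPM). Il10 was last of the 14 in that group, at 0.245 TPM. After 48 h with IL-25 the positions had changed. Il10 was number 3 at 195 TPM, next to Il13 at 200 TPM and behind Il5 at 2101 TPM, while Il22 was at 1.35 TPM. Il10 was number 3 again after 72 h with IL-25, at 138 TPM, behind Il5 (3160 TPM) and Il13 (338 TPM). In bulk libraries such as these, fewer cells with a transcript and less of it per cell cannot be told apart.

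The genes with the most similar profiles were sought among 4571 genes, by the root mean square difference between profiles of the 6 group means, each centred and scaled. This measure describes shape over 6 groups and not size. Closest to Il10 were Adap1 (0.071), Sec11a (0.082), Arl4a (0.088), Tg (0.105) and Cmtm7 (0.108). Tg, the thyroglobulin gene, went from 1.16 TPM without to 288 TPM with IL-25 at 48 h, and Cmtm7 from 124 to 606 TPM. Closest to Il22 were Tbl2 (0.073), Il10ra (0.079), Ptgs2 (0.083), Jun (0.087) and Zc3h12a (0.094). Ptgs2 encodes the inducible cyclooxygenase, Jun an AP-1 subunit, and Zc3h12a an RNase that degrades cytokine transcripts. Il10ra, the gene of the IL-10-specific receptor chain, thus had a profile near that of Il22 and not of Il10. With profiles centred but not scaled, so that size counts too, the nearest to Il10 were Tg, Ctla4, Ccr1, Tnfrsf8 and Ifitm1, and to Il22 Dgat2, Cd83, Nr4a1, Hspa1a and Cxcl2. Of the first 5, 1 was kept for Il10 and 0 for Il22.

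The other genes of the pathway were taken from 8 lists, 59 genes without Il10 and Il22. The lists share some genes, such as Nfil3 and Ahr. These enter the counts of each list that holds them, so the shares of the lists are not independent. Each was tested by limma on log2(TPM + 1) in a fit of the whole table, with Benjamini-Hochberg adjustment over all genes tested and a call at an adjusted p under 0.05. Of the 59, 48 were listed in culture and 47 passed the filter of 1 TPM in 4 libraries. At 4 h IL-25 went with higher levels of 14 and lower levels of 7 of these 47, or 44.7%, where 40.3% of all 10548 genes tested were called. At 48 h it was 13 and 24 (78.7%, against 50.1% of all genes), and at 72 h 14 and 19 (70.2%, against 48.5% of all genes). The median difference over all genes was -0.12 at 4 h, -0.09 at 48 h and -0.20 at 72 h, and rescaling by the median of ratios brought it to 0.00, -0.01 and 0.01. With that rescaling the pathway counts were 19 and 5 at 4 h, 14 and 22 at 48 h, and 19 and 14 at 72 h, so the balance of higher and lower calls at 4 and 72 h moved with the scaling. The share called at 4 h was near that of all genes.

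Of the other ligand genes, Il24 alone was listed in culture, and Il19, Il20, Iltifb, Ifnl2 and Ifnl3 were not. Il24 was 17.5, 11.6, 15.8 and 15.99 TPM after 48 h with IL-25 and at 0 in all 4 libraries without. At 72 h it was 3.84, 0.54, 4.75 and 3.38 TPM with IL-25, and again at 0 in all 4 libraries without. No IL-25 library overlapped the controls at either time, and replicate 2 at 72 h was the lowest of its group. IL-25 minus none was 4.00 at 48 h, 1.89 at 72 h and -0.17 at 4 h (SE 0.30 each). The Il24 libraries at 48 h with IL-25 lay above those at 72 h, while the Il10 libraries of these times overlapped. Il24 passed the filter only through the late IL-25 libraries, so its values are a description with no p, and it is 1 of the pathway genes counted as higher at 48 and 72 h.

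Of 7 receptor genes, Il10ra, Il10rb and Il20rb were listed in culture. Those of the IL-22 receptor, Il22ra1 and the soluble Il22ra2, were not, nor were Il20ra and Ifnlr1. Il10ra was 83.8, 85.1, 67.0 and 74.7 TPM after 4 h with IL-25 and 30.5, 28.9, 30.1 and 27.6 TPM without, with no overlap. It rose by 1.37 with IL-25 at 4 h (SE 0.16, limma adjusted p = 1.7e-07). By 48 h it had fallen by 1.90 without IL-25 (adjusted p = 1.7e-10), and its mean was then 6.64 ± 1.40 TPM with IL-25 and 7.25 ± 1.82 TPM without (SD, n = 4). The IL-25 effect was -0.10 at 48 h (adjusted p = 0.62), and it was 1.47 lower than at 4 h in a test of that difference itself (limma adjusted p = 1.5e-05). At 72 h the difference was 0.36 (adjusted p = 0.062). There the call turned with the setting: adjusted p was 0.0018 with median-of-ratios scaling, 0.00034 with quantile normalization, and 0.026 to 0.043 without replicate 4 of the group lacking IL-25 or replicate 2 of the group with it. Il10ra was thus low in every group at 48 and 72 h, with means of 5.09 to 7.25 TPM. This held both where Il10 was abundant and where it was near or at 0.

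Il10rb, the shared chain, stayed between 32.7 and 44.6 TPM in every group mean. Its mean was 32.7 TPM with IL-25 and 42.2 TPM without at 48 h (-0.36, limma adjusted p = 0.02), a call lost on leaving out replicate 3 or 4 of the group lacking IL-25 or replicate 2 of the group with it (adjusted p = 0.053 to 0.085). Il20rb had group means from 0.875 to 1.66 TPM and overlapped between IL-25 and control libraries at each time.

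**Figure D2:**
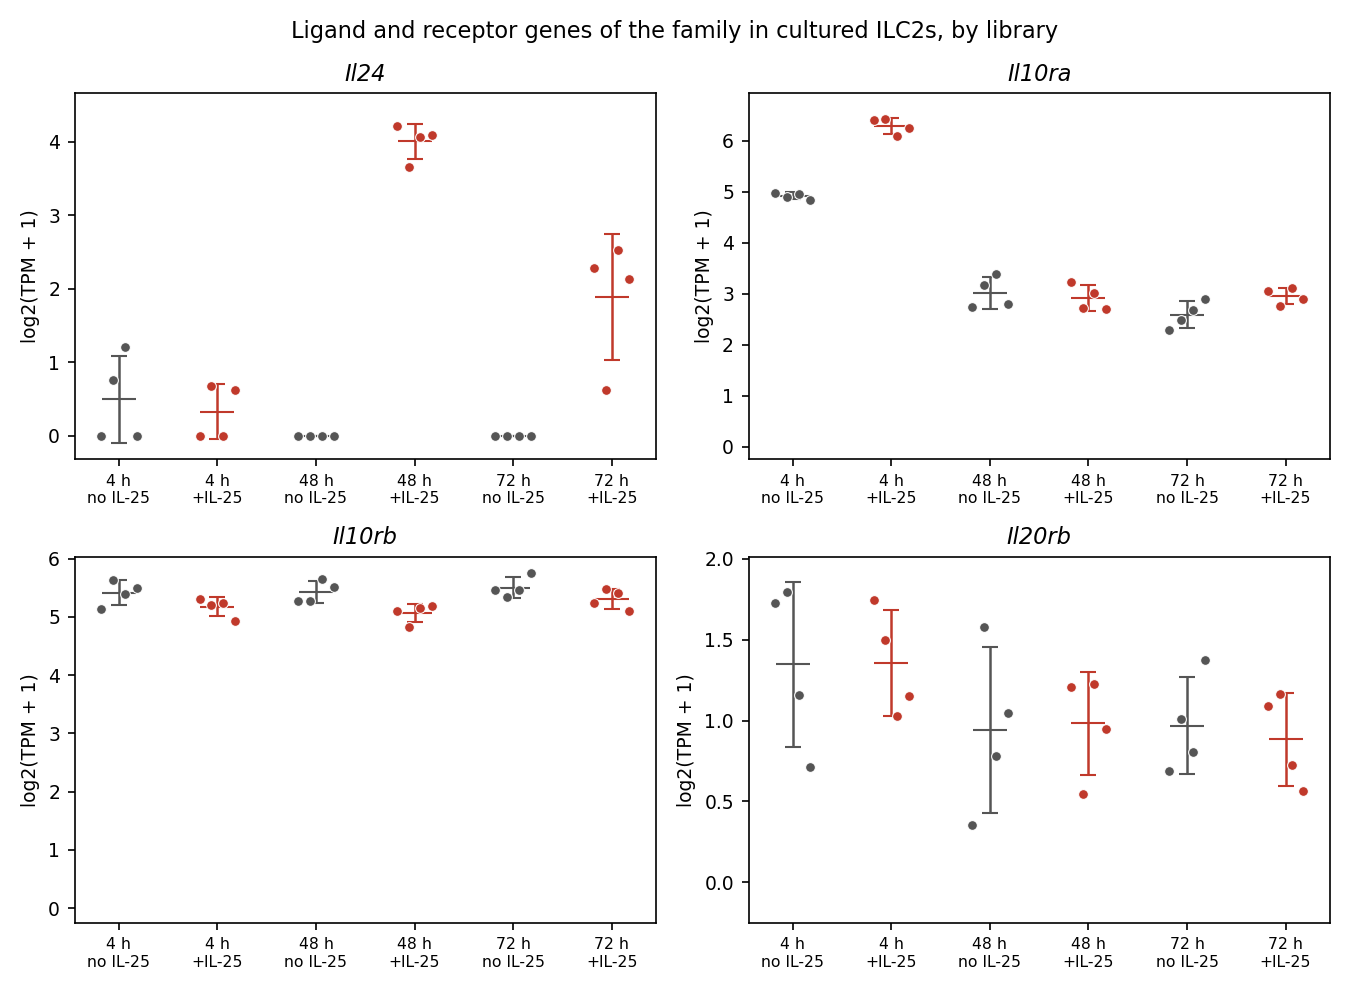
Each point is 1 library, with the group mean and SD of log2(TPM + 1), for the ligand gene Il24 and the receptor genes Il10ra, Il10rb and Il20rb after 4, 48 and 72 h without (grey) or with (red) IL-25. Il24 is highest at 48 h with IL-25 (mean 15.2 TPM), and Il10ra at 4 h with IL-25 (mean 77.7 TPM).

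Of 7 kinase and STAT genes behind these receptors, 4 rose and 2 fell with IL-25 at 4 h (85.7%, beside 40.3% of all genes). Jak1 rose by 0.43, Jak2 by 0.64, Stat5a by 1.31 and Stat5b by 0.66, while Tyk2 fell by 0.58 (limma adjusted p = 0.01, 0.00036, 2.3e-07, 0.001 and 0.0047). Stat3, the main transducer of IL-10 and IL-22 signals, was 177 ± 15.6 TPM with IL-25 and 149 ± 15.6 TPM without at 4 h, and was not called at any of the 3 times (adjusted p = 0.11, 0.26 and 0.27). At 48 h 4 of 7 fell and none rose (57.1%, beside 50.1% of all genes). Jak1 fell by 0.65, from 34.6 to 21.6 TPM, and Jak2 by 0.62, from 6.045 to 3.585 TPM (adjusted p = 0.00017 and 0.00032).

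Of 10 genes known to respond to STAT3 or to curb cytokine signals, 1 rose and 1 fell at 4 h (20%, beside 40.3% of all genes). At 48 h and at 72 h 5 rose and 4 fell (90%, beside 50.1% and 48.5% of all genes). Socs3, a feedback inhibitor of STAT3-coupled receptors, was 79.2 ± 8.08 TPM with IL-25 and 26.99 ± 3.45 TPM without at 48 h (SD, n = 4), and 166 and 22.4 TPM at 72 h. It rose by 1.52 and 2.855 (limma adjusted p = 5.9e-09 and 4.1e-14). Bcl3 (1.60 and 1.77), Sbno2 (0.72 and 1.125), Zfp36 (1.01 and 1.25) and Nfil3 (3.26 and 3.78) also rose at both times. Etv3 and Il4ra fell at both times (-2.098 and -1.35 at 48 h). Cish was lower by 0.95 at 48 h and by 0.32 at 72 h, and the call at 72 h was lost with median-of-ratios scaling (-0.088, adjusted p = 0.24). Pim1 was called lower at 48 h only, by 0.24 (adjusted p = 0.033), a call lost on leaving out any of 4 libraries (adjusted p up to 0.12) and with median-of-ratios scaling (adjusted p = 0.2). The list's median was 0.24 at 48 h and 0.59 at 72 h, beside -0.09 and -0.20 over all genes.

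Among 14 transcription factor genes known to activate Il10 in lymphocytes or other leukocytes, 5 rose and 1 fell with IL-25 at 4 h, 8 rose and 4 fell at 48 h, and 8 rose and 3 fell at 72 h. The share called was 42.9% at 4 h, near the 40.3% of all genes, and 85.7% and 78.6% later, beside 50.1% and 48.5%. The list's medians were 0.23, 0.91 and 0.86. Maf, which binds the Il10 locus in T cells, was 44.1, 37.6, 41.6 and 41.3 TPM with IL-25 at 48 h and 17.6, 22.1, 23.7 and 17.8 TPM without, with no overlap. At 4 h the Maf groups overlapped, with means of 11.9 and 12.4 TPM. It rose by 0.99 at 48 h and 1.07 at 72 h (limma adjusted p = 8.5e-08 and 2.7e-08). Prdm1, the gene of Blimp-1, rose by 1.49 and 1.11 at these times (adjusted p = 2.7e-05 and 0.00089). Nfil3 was 78.5, 68.8, 72.0 and 69.8 TPM with IL-25 at 48 h and 6.04, 5.18, 8.74 and 6.95 TPM without. It rose by 3.26 at 48 h (adjusted p = 2.5e-14), while at 4 h its means were 10.4 and 10.3 TPM (adjusted p = 0.99).

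Batf and Irf4, partners at composite AP-1 sites, rose at all 3 times. Batf rose by 1.31, 1.27 and 1.01, and its means with IL-25 were 548.5, 423 and 353 TPM. Irf4 rose by 1.21, 2.37 and 1.35, yet its level with IL-25 was 235.5 ± 16.9 TPM at 4 h, 21.9 ± 1.51 TPM at 48 h and 7.09 ± 1.485 TPM at 72 h. Junb rose by 0.73, 0.855 and 1.08, and Egr2 by 0.81, 1.10 and 1.27 at low levels, 1.82 TPM with IL-25 at 48 h. Gata3, the factor that defines ILC2s and also binds Il10, fell by 1.29 at 48 h and 0.74 at 72 h, from 723 to 295 TPM and from 877 to 523 TPM. Ahr fell by 2.04 and 1.53. Some small calls were not stable: Creb1 at 4 h, Egr2 at 4 h and Ikzf1 at 48 h lost theirs on leaving out 6, 4 and 6 of the 8 libraries (adjusted p up to 0.16, 0.098 and 0.16). Egr2 at 4 h also lost its call with a pseudocount of 0.1 TPM (adjusted p = 0.14), and Ikzf1 at 48 h with quantile normalization (adjusted p = 0.19).

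Of 4 genes known to repress Il10, 3 were listed. Bhlhe40, whose product holds Il10 down in T cells and macrophages, was 3.56, 2.54, 8.7 and 4.35 TPM with IL-25 at 48 h and 42.7, 46.2, 46.1 and 41.0 TPM without. Every IL-25 library was far below the controls. It fell by 3.06 at 48 h (SE 0.19, limma adjusted p = 1e-12) and by 0.92 at 72 h (adjusted p = 0.00031), with 0.12 at 4 h (adjusted p = 0.66). From 48 to 72 h with IL-25 it rose by 2.31 (adjusted p = 1e-09), to 26.1 ± 5.10 TPM. Between these groups Il10 differed by -0.48 (SE 0.16), with means of 195 and 138 TPM, and its libraries overlapped. Ets1 fell by 0.795 at 4 h and rose by 0.50 at 72 h. Bach2 was at most 3.675 TPM in any group mean and was not called for IL-25.

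Of 14 genes known to regulate Il22 or to mark the cells that make it, 12 were tested. With IL-25 4 rose and 1 fell at 4 h (41.7%, near the 40.3% of all genes), and 2 rose and 8 fell at 48 h and at 72 h (83.3%, beside 50.1% and 48.5%). The list's medians were 0.12, -0.95 and -0.78. Ahr, the aryl hydrocarbon receptor, on which Il22 depends in ILC3s, was 47.2, 42.7, 44.1 and 36.3 TPM with IL-25 at 4 h and 40.3, 36.2, 43.4 and 53.2 TPM without, so the groups overlapped where Il22 differed most. At 48 h Ahr was 2.77, 1.3, 2.41 and 1.17 TPM with IL-25 and 10.8, 9.75, 13.1 and 9.3 TPM without. Ahr thus had 2 steps, a fall of 1.91 from 4 to 48 h without IL-25 (limma adjusted p = 8.6e-10) and a fall of 2.04 with IL-25 at 48 h (adjusted p = 4e-10). Its partner Arnt fell by 0.75 and its repressor Ahrr by 1.69 at 48 h.

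Rora rose by 0.60 with IL-25 at 4 h and fell by 2.27 at 48 h (adjusted p = 0.00014 and 1.6e-14). Rbpj, the DNA-binding partner of Notch, rose by 0.65 and then fell by 0.55. Tcf7 rose by 0.54 at 4 h, a call lost with a pseudocount of 0.1 TPM (adjusted p = 0.23), with the 4 h groups fitted alone (adjusted p = 0.073) and on leaving out any of 4 libraries (adjusted p up to 0.075), and fell by 1.15 at 48 h. For Rora, Rbpj and Tcf7 the 48 h effect was lower than the 4 h effect in a test of the difference, with values of -2.87, -1.202 and -1.69 (limma adjusted p = 7.1e-13, 0.00013 and 1.7e-05). This difference was added after the values were seen. By that test the IL-25 effect was higher at 48 h than at 4 h for 11 of the 47 pathway genes, Il24 among them, and lower for 23 (72.3%, beside 27.9% of all genes).

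**Figure D3:**
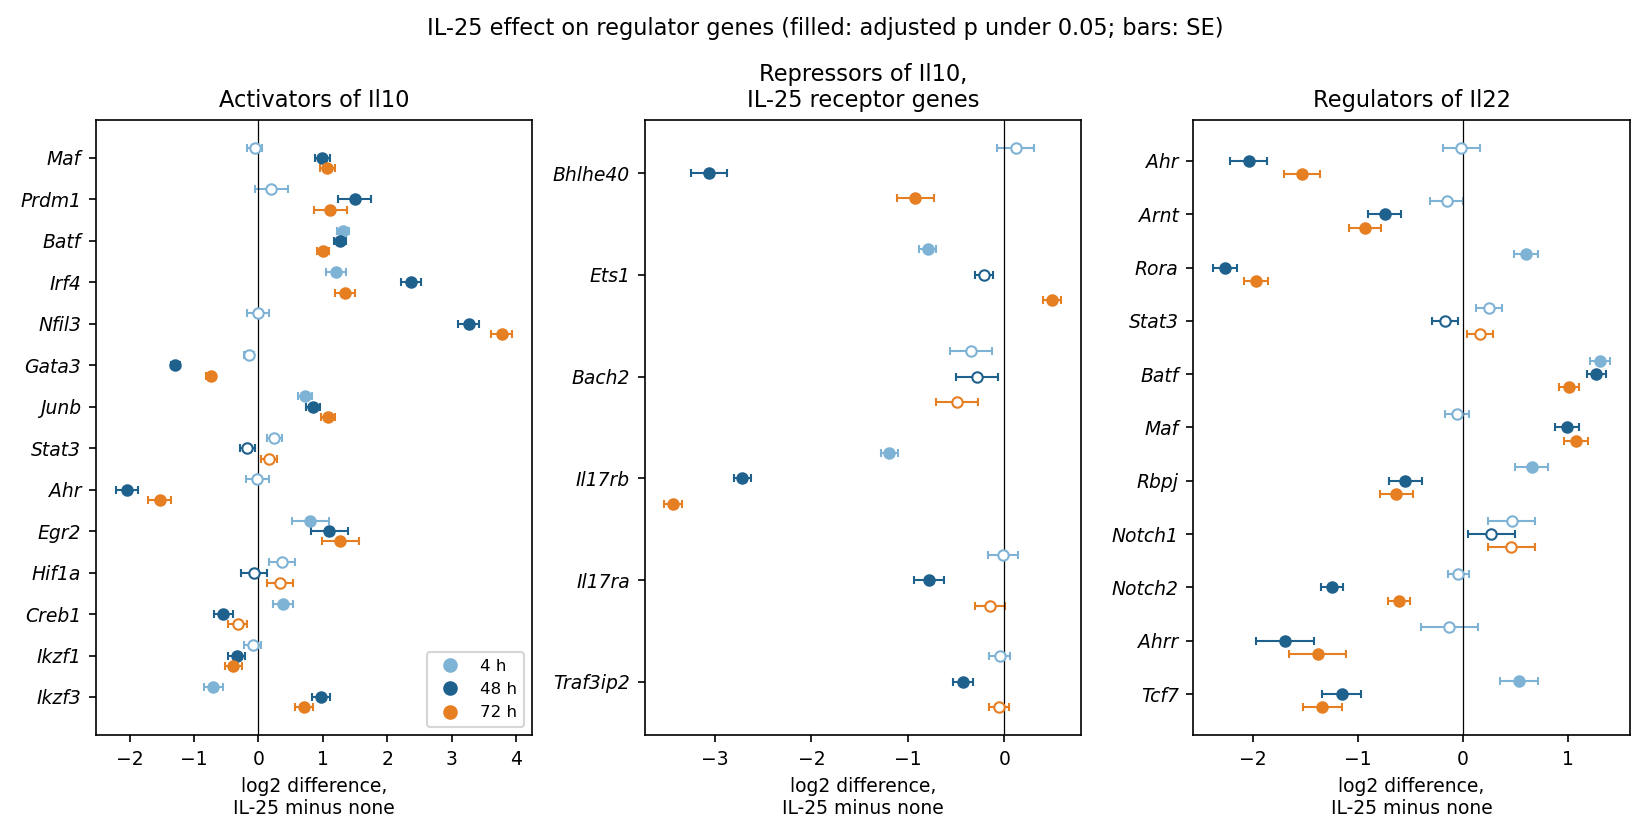
Points are log2(TPM + 1) differences, IL-25 minus none, with SE, at 4, 48 and 72 h for activators of Il10 (left), repressors of Il10 and IL-25 receptor genes (middle) and named regulators of Il22 (right); filled points are called (adjusted p under 0.05). Nfil3 (3.26), Irf4 (2.37) and Prdm1 (1.49) rose at 48 h, while Bhlhe40 (-3.06), Rora (-2.27) and Ahr (-2.04) fell.

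Of the IL-25 receptor genes, Il17rb, the specific chain, fell at all 3 times, by 1.19, 2.72 and 3.44, to 155, 18.0 and 12.1 TPM with IL-25. Il17ra and the adaptor gene Traf3ip2 fell at 48 h only among these times, by 0.78 and 0.43 (limma adjusted p = 0.00016 and 0.0015). Il10 was thus abundant in the groups with the least Il17rb.

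Culture time alone went with wide changes. From 4 to 48 h without IL-25, 5 pathway genes rose and 34 fell (83.0%, beside 64.4% of all genes, with a median of -0.28 over all genes). With the median of ratios it was 8 and 25. With IL-25, 7 rose and 34 fell (87.2%, beside 72.2%). Irf4 fell by 4.53 without IL-25, from 102 to 3.46 TPM, and Hif1a, Rbpj, Stat5a and Ikzf1 by 2.32, 2.33, 2.52 and 1.97. Prdm1 and Maf rose by 1.199 and 0.67 without IL-25 (limma adjusted p = 0.00025 and 1.8e-05), where Il10 was at 0. From 48 to 72 h, no pathway gene was called without IL-25, where 8 had an unadjusted p under 0.05 and 0.379% of all genes were called. With IL-25 18 rose and 6 fell (51.1%, beside 31.2%).

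Genes within 500 kb of each locus were also measured. Il10 had 30 annotated neighbours there, 17 of them protein coding, and 10 were listed in culture. Il22 had 26, of which 7 code for protein and 6 were listed. Of the 15 neighbours tested, 4 rose and 3 fell with IL-25 at 48 h, or 46.7%, near the 50.1% of all genes. At 4 h 2 rose and 3 fell (33.3%, beside 40.3%), and at 72 h 4 rose and 4 fell (53.3%, beside 48.5%). The genes of the 2 largest differences, Fcmr and Il24, stood next to each other on 1 side of Il10. Fcmr, the gene of an IgM Fc receptor 139.1 kb from Il10, was 35.5, 31.0, 34.5 and 43.0 TPM with IL-25 at 48 h and 1.25, 0.78, 0 and 2.04 TPM without. It rose by 4.30 at 48 h and 4.25 at 72 h (limma adjusted p = 7e-13 and 9e-13). Il24, 132.4 kb from Il10, had differences of 4.00 and 1.89, and is 1 of the 4 counted as risen though no test is given for it. Il19 and Il20, which lie between Il24 and Il10, were not listed. On the other side, Mapkapk2, the nearest listed gene, had 0.27 at 48 h (adjusted p = 0.13), and Rassf5 and Ikbke fell by 0.48 and 1.24.

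Around Il22, the nearest listed gene was Mdm1, 35.6 kb away, at 4.45 ± 2.38 TPM with IL-25 and 2.74 ± 1.54 TPM without at 4 h (0.53, adjusted p = 0.19). Of the few neighbours of Il22 tested, none was called for IL-25 at 4 h, where 40.3% of all genes were. Rap1b and Nup107 rose at 48 h, by 0.49 and 0.72. Ifng, 231 kb from Il22 and the only other cytokine gene there besides Iltifb, did not pass the filter.

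**Figure D4:**
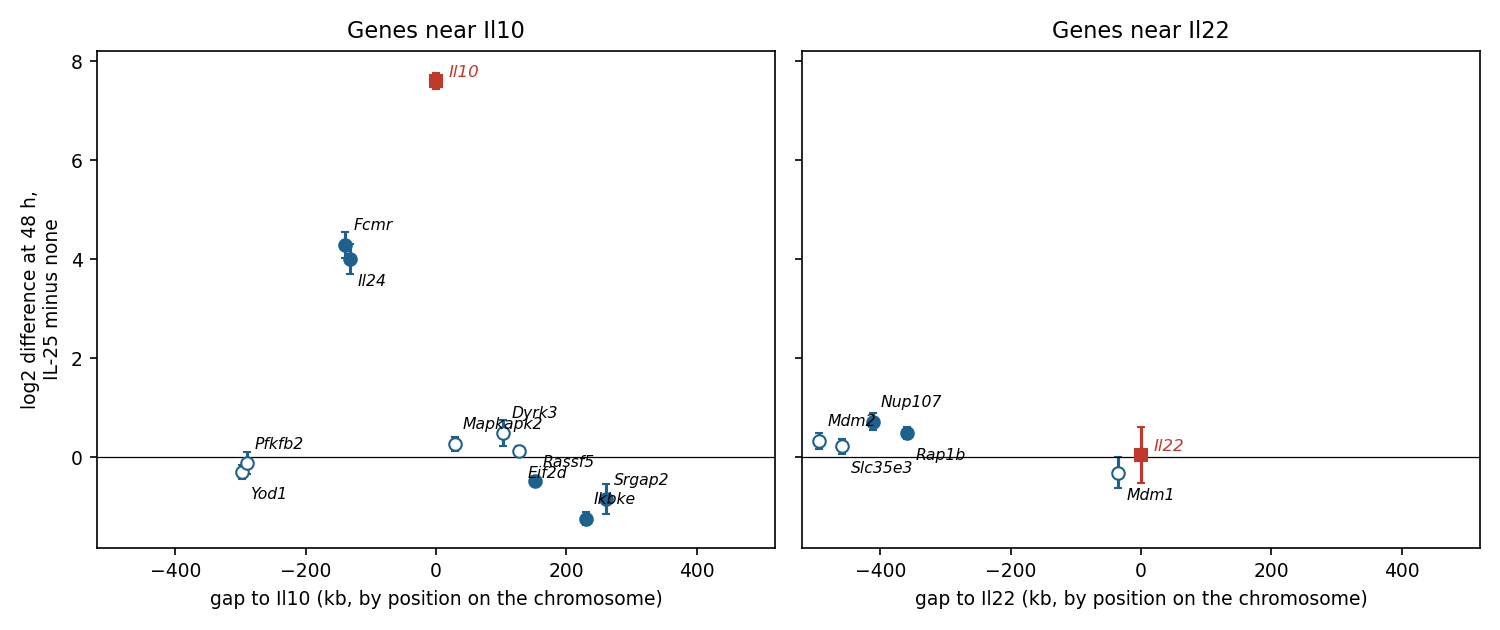
Points are log2(TPM + 1) differences at 48 h, IL-25 minus none, with SE, for listed genes within 500 kb against their gap in kb from Il10 (left) or Il22 (right), which are shown in red at 0; filled points are called. Fcmr (4.30) and Il24 (4.00) stand near Il10 (7.60), and the neighbours of Il22 lie between -0.31 and 0.72.

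Marker genes were read to check the label. All 12 ILC2 markers were listed, with summed levels of 2729 to 6959 TPM per culture library. At 72 h the sum was 3028 to 3533 TPM without IL-25 and 6024 to 6959 TPM with it. The mean of Il5 alone was 206 and 3160 TPM in these groups. Gata3, Rora and Il17rb, of the same list, were lower with IL-25 at 48 h, so the sum does not stand for each member. Of 11 T cell markers, 4 were listed (Cd3e, Cd3g, Foxp3 and Cd28), some of which ILC2s can express, and Cd3d, Cd4, Cd8a and Trac were not. Their sum was 46 to 51 TPM at 4 h without IL-25 and 74.9 to 100 TPM with it, and 85.2 to 136 against 29.4 to 36.5 TPM at 48 h. Of 9 ILC3 markers, 5 were listed. Their sum was 41.9 to 48.4 TPM at 4 h without IL-25 and 37.3 to 53.7 TPM with it, mostly Lta. At 48 h it was 17.8 to 24.1 TPM without IL-25 and 1.05 to 1.45 TPM with it. Il23r and Il17f were at 0 in all libraries at 48 h with IL-25. At 72 h the sum was 15.5 to 24.3 TPM without IL-25 and 0.77 to 1.66 TPM with it. Il17f, a gene of the same list, was 0.96, 0, 0 and 0 TPM at 4 h without IL-25 and 4.27, 0, 1.73 and 2.44 TPM with it, so its mean was higher in the group with more Il22, and the libraries overlapped. Of the NK cell or ILC1 markers, 4 of 7 were listed and summed to 3.99 to 6.14 TPM at 48 h without IL-25 and 11.3 to 12.5 TPM with it, mostly Prf1. At 72 h they summed to 2.76 to 8.37 TPM without IL-25 and 24.5 to 35 TPM with it, the highest of the 6 groups, with Ncr1 at 0 in all libraries of the latter. Cd79b, the 1 listed of 6 B cell markers, was 25.2 to 30.1 TPM at 4 h without IL-25 and 12.3 to 19.5 TPM with it, 43.5 to 49.8 and 71.3 to 91.5 TPM at 48 h, and 37.6 to 47.1 and 132 to 157 TPM at 72 h. It was thus highest in the groups with abundant Il10, though higher at 72 than at 48 h. Cd79a and Ms4a1 were not listed. Of 9 macrophage or dendritic cell markers Cd68 alone was listed, at 1.04 to 3.51 TPM at 48 h without IL-25, 2.52 to 5.11 TPM with it and 3.84 to 7.23 TPM at 72 h with it. Of 7 epithelial markers Epcam and Krt18 were listed. Without and with IL-25 they summed to 171 to 186 and 87.7 to 99.8 TPM at 4 h, 95.9 to 113 and 35.1 to 40.5 TPM at 48 h, and 68 to 88.1 and 51.5 to 61.5 TPM at 72 h. None of 6 mast cell or basophil markers was listed. The part of these markers' cells in the results was not tested.

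In the second experiment neither Il10 nor Il22 was listed, so no level can be given for nILC2 or iILC2, CTRL or KO. Every gene listed there was above 0 in at least 7 of the 16 libraries, and how the list was made is not given in the sources used here. Il24, Il20rb and Ifng were not listed either. Rxrg was 12.2 to 18.4 TPM in nILC2 CTRL and 1.27 to 3.12 TPM in KO libraries, and 1.26 to 1.83 and 0 to 0.48 TPM in iILC2, so all KO libraries lay below their controls.

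Of the pathway genes, 44 were tested there. Between iILC2 and nILC2 of CTRL mice, 6 were higher and 24 lower in iILC2 (68.2%, beside 45.5% of all 10069 genes tested), and 3 and 22 in KO (56.8%, beside 31.4%). Il10ra was 28.7, 27.5, 21.8 and 28.9 TPM in nILC2 CTRL and 20.9, 14.5, 19.3 and 18.2 TPM in iILC2 CTRL, with no overlap. It was lower by 0.53 in CTRL and by 0.56 in KO (limma adjusted p = 0.0041 and 0.0048). ILC2 markers summed to 2605 to 2925 TPM in nILC2 CTRL and 1217 to 1303 TPM in iILC2 CTRL. T cell markers (3 of 11 listed) summed to 52.1 to 84.7 and 12.3 to 26.8 TPM in these groups. ILC3 markers (2 of 9 listed) summed to 20.8 to 36.3 and 1.47 to 3.07 TPM. Epcam and Krt18 summed to 18.4 to 30.4 and 13.6 to 16.5 TPM. Cd79b was higher in iILC2 CTRL (117 to 154 and 238 to 282 TPM). So were Prf1 (2.99 to 7.08 and 7.18 to 12.9 TPM) and Cd68 (0.71 to 3.88 and 5.83 to 9.88 TPM). The part of these markers' cells in the differences was not tested. Several differences had the sign seen with IL-25 in culture at 48 h: Bhlhe40 (-2.99, from 25.3 to 2.67 TPM), Ahr (-2.22), Tcf7 (-2.70) and Rora (-0.49) were lower in iILC2 CTRL, and Maf (0.39) and Prdm1 (1.301) higher. Others had the opposite sign, such as Batf (-0.68) and Junb (-1.47), and Nfil3 was not called (0.65, adjusted p = 0.11). These are each experiment's own values, set side by side without a test between them.

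For KO against CTRL in nILC2, 3 of 44 pathway genes fell and none rose (6.82%, beside 1.54% of all genes). Ahr was 9.83, 8.32, 11.7 and 8.25 TPM in KO and 17.2, 12.0, 18.7 and 22.2 TPM in CTRL (-0.80, limma adjusted p = 0.041). Gata3 (-0.37, adjusted p = 0.038) and Il17rb (-0.45, adjusted p = 0.034) were the others. The call of Ahr was lost with a pseudocount of 0.1 TPM (adjusted p = 0.056). The 3 calls were lost when these groups were fitted alone (adjusted p = 0.2 each), and leaving out 1 library gave 0 to 7 calls, with 0 on leaving out CTRL library 3 or 4 or KO library 3 or 4, 1 without CTRL library 1 or KO library 2, and 7 without KO library 1. Il10ra was 19.3 TPM in KO and 26.7 TPM in CTRL (-0.45, adjusted p = 0.089), and adjusted p was 0.019 without KO library 1. In iILC2 no pathway gene was called by limma, where 3 had an unadjusted p under 0.05, and 0% of all genes were called, with 328 at an unadjusted p under 0.05. The difference between the 2 KO effects was called by limma for 0% of all genes and for no pathway gene, where 1059 genes and 9 pathway genes had an unadjusted p under 0.05.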

How the data were processed

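The authors deposited 2 tables of TPM per gene, 1 of 24 culture libraries and 1 of 16 nILC2 and iILC2 libraries. The tools named in the submitters' processing notes include RSEM 1.3.3, STAR 2.7.5c and cutadapt 2.10, with the build mm10. The listed genes summed to 849733 to 898025 TPM per library. TPM keeps no read total, so depth is unknown and no counting interval or floor is given. Values of some list members are not reported here, though list counts and marker sums include them. The 14 ATAC-seq and CUT&Tag samples were not analysed here.

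Il10 and Il22, the gene lists and the tests were chosen with earlier results of these data known. Groups follow titles and labels. Each table was fitted with limma 3.58.1 in R 4.3.3 with a trended variance prior, taking log2(TPM + 1) of every gene that reached 1 TPM in 4 or more libraries, with group means as the terms and no block. Benjamini-Hochberg adjustment covered all genes so tested. Named are Il10 and Il22, listed members of the 8 pathway lists, genes within 500 kb, Rxrg, markers, and the 5 genes nearest in profile that reach 10 TPM and span 1 log2 unit. The interleukin list and the differences between effects were added after the values were seen. Profile likeness was not computed for nILC2 and iILC2, where neither gene was listed.

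In a simulation for IL-25 at 4 h (10331 genes), 84 of 100 genes altered by log2 1 and 100 of 100 altered by log2 2 were recovered. For KO in nILC2 (9992 genes) it was 85 and 100 of 100. False calls were 5.15% and 2.12%. The altered genes were drawn from those with a mean log2(TPM + 1) over 2, with normal noise drawn independently for each gene. The rates therefore do not cover genes at low levels or data where a large share of genes changes. Same-numbered libraries deviated together (every r over 0.1) in 1 of 6 pairs of nILC2 and iILC2 groups, the KO pair (r from 0.102 to 0.231), and in 0 of 15 pairs of culture groups. The labels state no pairing. Alternatives were a pseudocount of 0.1 TPM, no filter, a filter of 5 TPM, median-of-ratios and quantile scaling, the compared groups alone, a replicate block, and leaving out each library.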

Additional observations from a re-analysis of the deposited data

Results flagged for a closer look

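Of 41 groups of 4 libraries examined for Il10, Il22 and the other ligand and receptor genes, 4 held a library far from the rest by Dixon's ratio. Chance flags about 1 in 20 groups, a rate that does not hold where the other 3 libraries are all at 0. Il22 was 4.89 TPM in replicate 4 at 48 h with IL-25, against 0 to 0.27 TPM in the others, and 13.06 TPM in replicate 4 at 72 h with IL-25, against 0.24 to 0.44 TPM. In the latter library Ifng was 1.89 TPM and 0 in the other 3 of its group. Gzmc, Ccl4 and Ccl3, chosen after their values were seen, were 6.44, 4.99 and 2.88 TPM there. Their values in other libraries are not given here, so these show no difference. Il23r and Il17f, genes typical of ILC3s, were at 0 in that library, and the part of other cells in these values was not tested. Il10 was 0.28 TPM in replicate 3 at 4 h without IL-25 and 0.38 TPM in replicate 1 at 72 h without it, with the other 3 libraries of each group at 0, so that any value above 0 would have been picked out.

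The IL-25 effect was compared between 48 and 4 h, a contrast added after the values were seen. It was higher at 48 h by 4.17 for Il24, given with no p since this gene passed the filter only through the late IL-25 libraries, where all 4 libraries with IL-25 lay above the controls at 48 h and the groups overlapped at 4 h. It was lower at 48 h for Il10ra, by -1.474 (limma adjusted p = 1.5e-05), where the reverse held for overlap.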

How the results depend on the processing

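With a pseudocount of 0.1 TPM, Il10 differed between IL-25 and none by 1.054 at 4 h, 10.914 at 48 h and 9.862 at 72 h, and between 48 and 4 h by -0.481 without and 9.379 with IL-25, and between 72 and 48 h without IL-25 by 0.566. With that pseudocount Il22 differed between 48 and 4 h by -5.356 without and -9.533 with IL-25, between IL-25 and none by -0.629 at 48 h and 1.722 at 72 h, and between 72 and 48 h without IL-25 by -1.405. Median-of-ratios scaling gave Il10 7.215 at 72 h. Leaving out each library gave Il10 7.527 to 7.717 at 48 h, and Il22 3.306 to 3.774 at 4 h, -0.543 to 0.31 at 48 h, 0.078 to 1.246 at 72 h and -0.412 to 1.025 between 72 and 48 h with IL-25. Notch2 between 48 and 4 h without IL-25 turned from -0.26 to 0.059 with the median of ratios and 0.001 with quantile scaling, and the cause was not tested.

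For KO in nILC2, 0 pathway genes were called when nILC2 libraries were fitted by themselves, with fewer samples, and 0 to 7 on leaving out a library. Calls over all genes there were 155 as reported, 82 with a pseudocount of 0.1 TPM, 272 with the median of ratios (204 higher, 68 lower), 5 with the compared groups alone, and 23 to 1006 on leaving out a library. Between 72 and 48 h without IL-25 they were 40 as reported, and 26, 86 and 1 with a pseudocount of 0.1 TPM, quantile scaling and the compared groups alone, and 11 to 49 on leaving out a library. For the difference between KO effects they were 0 as reported, 1 with quantile scaling, and up to 132 on leaving out a library.

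The replicate block, where numbers are shared but no pairing is stated, called 20, 38 and 33 pathway genes for IL-25 at 4, 48 and 72 h and 4 for KO in nILC2, with 317 genes in all for the latter and 8 for the difference between KO effects. For iILC2 against nILC2 of KO, the pair of groups whose numbers deviated together, it called 29 pathway genes (4 higher, 25 lower) where 25 were called without it, and 3385 genes in all where 3161 were. It lost 3 calls of 376 gene comparisons: Creb1 at 4 h (adjusted p = 0.051), Arnt for the difference between the effects at 48 and 4 h (adjusted p = 0.052) and Pim1 in iILC2 against nILC2 of CTRL (adjusted p = 0.05).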
